A study of Saccharomyces cerevisiae with 9 samples.

Results

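The transcripts described here are those of 8 yeast genes that choose where a cell forms its next bud: AXL1, AXL2, BUD3 and BUD4 of the axial pattern, and BUD8, BUD9, RAX1 and RAX2 of the bipolar pattern. They were found by gene symbol in the array annotation, and all 8 were measured, among 5311 Saccharomyces cerevisiae genes on the array. Each was read by 1 probe set, and each probe set lay above the background level on every array. In SK1 strain cells, total RNA was hybridized to 9 Affymetrix arrays. The groups were ime4-/- cells (ime4, 2 arrays) and wild-type cells (WT, 3 arrays) at 4 h in sporulation medium (SPO, potassium acetate), and ime4 (2 arrays) and WT (2 arrays) cells in the rich medium YPD. Replicates are called biological by the submitters. The labels state neither the ploidy, nor the mating-type genotype, nor the extent of the ime4 deletion.

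Budding yeast picks its bud site by cell type. Haploid a and alpha cells bud axially, next to the site of the last division, and a/alpha diploids bud from either pole. The axial landmark forms at the old septin ring from Bud3 and Bud4, with the transmembrane protein Axl2 and with Axl1, whose gene is repressed by the a1-alpha2 repressor of a/alpha cells. Bipolar landmarks are the membrane proteins Bud8, at the pole away from the birth site, Bud9, at the birth site pole, and the pair Rax1 and Rax2, which persist at former division sites. Both sets of landmarks are read by the small GTPase Rsr1, which hands the site to the polarity GTPase Cdc42. Vegetative cells bud, whereas cells that enter meiosis form spores within the mother cell.

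Values are log2 intensities. A gene is said to have risen or fallen where the adjusted p lay under 0.05 among the 5359 tested probe sets, and levels of different genes are not compared, since probes differ in brightness. The 2 genotypes differed in more than IME4. The IME4 probe set, which reads the deleted RNA methyltransferase gene, averaged 2.34 in ime4 in SPO and 2.36 in ime4 in YPD, below background, against 7.12 in WT in SPO and 5.35 in WT in YPD. HMRA1, which reads the a1 transcript, averaged 3.0 in ime4 in SPO against 8.79 in WT, and 1.78 in ime4 in YPD against 8.04 in WT. HMLALPHA1, which reads alpha1, averaged 7.71 in ime4 in SPO against 3.98 in WT, and 8.91 in ime4 in YPD against 4.20 in WT. All 8 a-cell markers were lower in ime4 and all 6 alpha-cell markers higher, in both media. Of all tested sets, 39.4% were lower and 34.1% higher in ime4 in SPO, and 18.7% were lower and 21.3% higher in YPD. The summed intensity of the a-cell markers was 289.0 to 290.1 on ime4 arrays in SPO against 3145 to 3269 on WT arrays, and 142.6 to 154.9 on ime4 arrays in YPD against 3828 to 3956 on WT arrays. That of the alpha-cell markers was 2125 to 2212 on ime4 arrays in SPO against 290.6 to 311.5 on WT arrays, and 8696 to 8803 on ime4 arrays in YPD against 367.2 to 390.2 on WT arrays. HMRA1 and MFA2 were at background on both ime4 arrays in YPD. Loss of IME4 and this difference in mating-type transcripts cannot be told apart in any comparison of the genotypes below. In RNA from whole cultures, fewer cells that hold a transcript and less of it per cell cannot be told apart either.

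**Figure D1:**
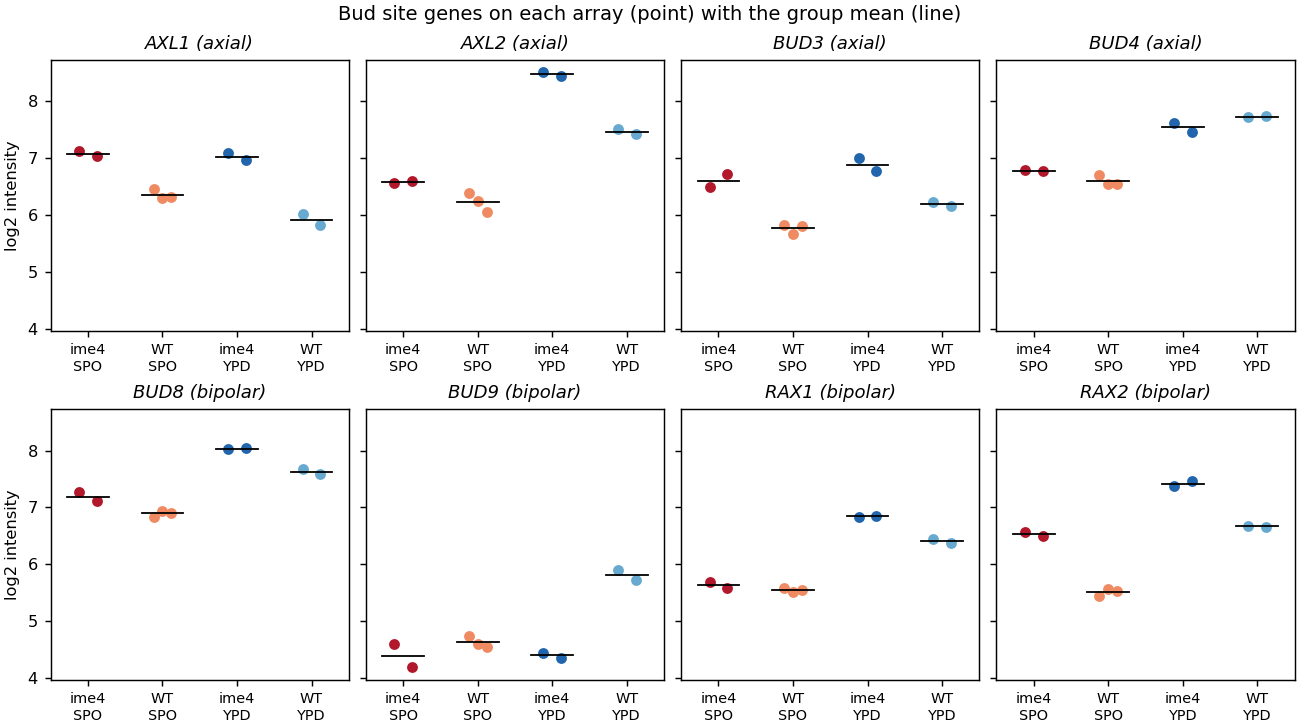
Log2 intensity of the 8 bud site genes (y axis) on each of the 9 arrays, by genotype and medium (x axis). Points are arrays and lines are group means. AXL1 was higher on every ime4 array than on every WT array, BUD9 was high in WT in YPD alone, and most other genes were lower in SPO than in YPD. Levels are compared within a panel only.

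Whether ime4 cells hold other levels of the landmark transcripts than WT cells was asked first in YPD, the rich medium. There, 6 of the 8 genes were higher in ime4 (21.3% of all tested sets were higher) and 1 was lower (18.7% were lower). The median difference over the 8 was 0.56, against 0.02 over all tested sets. AXL1, AXL2, BUD3, BUD8, RAX1 and RAX2 were the higher genes, by 1.32-fold to 2.15-fold, and BUD9 was lower. Only BUD4 did not pass the threshold. In SPO, 6 genes were higher in ime4 (34.1% of all tested sets) and 0 were lower by limma, also at an unadjusted p of 0.05 (39.4% of all tested sets were lower), with a median of 0.32 against -0.04 over all sets. BUD9 and RAX1 were the ones that did not pass, with unadjusted p = 0.0658 and 0.105. Quantile normalization called BUD9 lower in SPO. Of the 6 genes called higher in SPO, RAX2 was exceeded in size by 7.13% of the tested sets and BUD3 by 11.8%. AXL2 was exceeded by 44.6%, BUD8 by 53.3% and BUD4 by 69.6%, with AXL1 between BUD3 and AXL2.

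Among the axial genes, AXL1 encodes a protease that fixes the axial pattern and also trims the a-factor precursor. It read 7.13 and 7.04 on the ime4 arrays in SPO against 6.46, 6.30 and 6.33 on the WT arrays, and 7.09 and 6.97 on the ime4 arrays in YPD against 6.02 and 5.83 on the WT arrays. The 4 ime4 arrays all stood above the 5 WT arrays. AXL1 was 2.15-fold higher in ime4 in YPD (log2 1.11, SE 0.0815, adjusted p = 1.14e-05) and 1.65-fold higher in SPO (log2 0.72, SE 0.0744, adjusted p = 1.77e-05). In YPD, 1.57% of the tested sets differed by more in size, and in SPO a larger share did. AXL1 belongs to the haploid-specific genes. Of all tested sets, 34.1% were higher in ime4 in SPO and 21.3% in YPD, with medians of -0.04 and 0.02. Apart from AXL1 itself, 9 of the 9 other haploid-specific genes listed were higher in SPO (median 1.08) and 8 of 9 in YPD (median 1.45). The pheromone receptor G protein genes GPA1 (1.33 in SPO, 1.56 in YPD) and STE4 (1.76 in YPD) were among them. The summed intensity of these 9 genes was 2056 to 2102 on ime4 arrays in SPO against 910.9 to 935.6 on WT arrays, and 2526 to 2528 on ime4 arrays in YPD against 923.4 to 949.3 on WT arrays. Their part in the AXL1 result was not tested.

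AXL2, the transmembrane landmark protein whose transcript is known to peak in late G1, read 6.57 and 6.60 in ime4 in SPO against 6.39, 6.25 and 6.05 in WT. In YPD it read 8.51 and 8.44 in ime4 against 7.51 and 7.42 in WT. The groups were apart in both media, by more in YPD. The difference of ime4 and WT was 2.01-fold in YPD (log2 1.01, SE 0.0938, adjusted p = 4.74e-05) and 1.28-fold in SPO (log2 0.36, SE 0.0856, adjusted p = 0.00421). Of 14 measured genes of the late G1 list, 3 were higher in ime4 in YPD, AXL2 among them, and 2 were lower (median 0.10), shares near the 21.3% and 18.7% of all tested sets. PCL1, a G1 cyclin gene, was higher there by 1.10 log2. In SPO, 13 of the 14 were higher, AXL2 among them (median 0.65, against 34.1% of all tested sets higher). POL30, which encodes the sliding clamp of DNA replication, was higher by 1.49.

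BUD3 encodes an exchange factor for Cdc42 that sits at the bud neck. It read 6.49 and 6.72 in ime4 in SPO against 5.83, 5.68 and 5.82 in WT, and 7.00 and 6.78 in ime4 in YPD against 6.23 and 6.17 in WT. Every ime4 array again stood above every WT array, whichever the medium. BUD3 was 1.77-fold higher in ime4 in SPO (log2 0.83, SE 0.0865, adjusted p = 1.97e-05) and 1.61-fold higher in YPD (log2 0.68, SE 0.0948, adjusted p = 0.000523).

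BUD4, an anillin-like protein that links the landmark to the septins, had small differences between the genotypes, of opposite sign in the 2 media. It read 6.80 and 6.77 in ime4 in SPO against 6.70, 6.55 and 6.55 in WT, and 7.62 and 7.47 in ime4 in YPD against 7.73 and 7.74 in WT. The small gap ran upward in SPO (log2 0.18, SE 0.0627, adjusted p = 0.0243) and downward in YPD (log2 -0.19, SE 0.0687, adjusted p = 0.0562). Neither call was stable. The SPO call was lost with quantile normalization (adjusted p = 0.115), without either ime4 array and without WT replicate 2 or 3 in SPO (adjusted p = 0.0661 to 0.104). In YPD the gap passed with quantile normalization (adjusted p = 0.0367), with centring (0.0398), without the dimmest 25% of sets (0.0315), with an offset (0.0362), without ime4 replicate 1 in YPD (0.0379) and without WT replicate 1 in SPO (0.0339).

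Of the bipolar genes, BUD9 went the other way from the rest. It read 4.60 and 4.19 in ime4 in SPO against 4.74, 4.60 and 4.55 in WT. In YPD it read 4.45 and 4.36 in ime4 against 5.91 and 5.73 in WT. The WT cultures in YPD stood alone, and the other 7 arrays lay between 4.19 and 4.74. BUD9 was 2.66-fold lower in ime4 in YPD (log2 -1.41, SE 0.123, adjusted p = 3.13e-05), a size that 0.802% of the tested sets exceeded. In SPO the difference was -0.23 (95% interval -0.49 to 0.02, adjusted p = 0.0855), and it passed with quantile normalization (-0.39, adjusted p = 0.0109) and without ime4 replicate 1 (-0.44, adjusted p = 0.00429).

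BUD9 is known to be transcribed mainly in G1. A list of 11 genes of the M to G1 interval holds daughter-cell genes and others. Of these, 6 were lower in ime4 in YPD and the other 5 did not pass (median -0.27). In SPO 6 were lower and 5 higher (median -0.29). Among all tested sets, 18.7% were lower and 21.3% higher in YPD, and 39.4% were lower and 34.1% higher in SPO. DSE2, a daughter-cell wall gene, had a log2 difference of -3.62 in YPD (adjusted p = 3.19e-09) and of -2.62 in SPO. CTS1, the chitinase gene of cell separation, had -2.44 in YPD and -1.73 in SPO. The late G1 list, which holds AXL2, had 3 of 14 genes higher and 2 lower in ime4 in YPD (median 0.10). In SPO it had 13 higher and 0 lower (median 0.65). The part of either list in the BUD9 result was not tested.

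BUD8 marks the opposite pole to Bud9 and its transcript is known to peak in G2 and M. It read 7.27 and 7.11 in ime4 in SPO against 6.84, 6.94 and 6.91 in WT, and 8.03 and 8.04 in ime4 in YPD against 7.68 and 7.58 in WT. In each medium the ime4 arrays were the higher ones. The rise in ime4 was 1.32-fold in YPD (log2 0.41, SE 0.0662, adjusted p = 0.00131) and 1.23-fold in SPO (log2 0.29, SE 0.0604, adjusted p = 0.00172). BUD8 and BUD9 thus had differences of opposite sign in YPD.

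RAX1 and RAX2, whose proteins form a complex, differed mainly in the size of their genotype difference in SPO. RAX2 read 6.56 and 6.50 in ime4 in SPO against 5.44, 5.57 and 5.54 in WT, and 7.37 and 7.47 in ime4 in YPD against 6.68 and 6.66 in WT. RAX1 read 5.69 and 5.58 in ime4 in SPO against 5.58, 5.51 and 5.55 in WT, and 6.84 and 6.85 in ime4 in YPD against 6.44 and 6.38 in WT. Both were higher in ime4 in YPD, while in SPO RAX2 stood clearly apart and the RAX1 arrays nearly met. For RAX2 the rise was 2.02-fold in SPO (log2 1.01, SE 0.0545, adjusted p = 2.73e-07) and 1.68-fold in YPD (log2 0.75, SE 0.0597, adjusted p = 1.85e-05). For RAX1 it was 1.35-fold in YPD (log2 0.44, SE 0.0539, adjusted p = 0.000287), and in SPO the difference was 0.09 (95% interval -0.02 to 0.20, adjusted p = 0.131), -0.12 with quantile normalization and past the threshold with centring (adjusted p = 0.045).

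**Figure D2:**
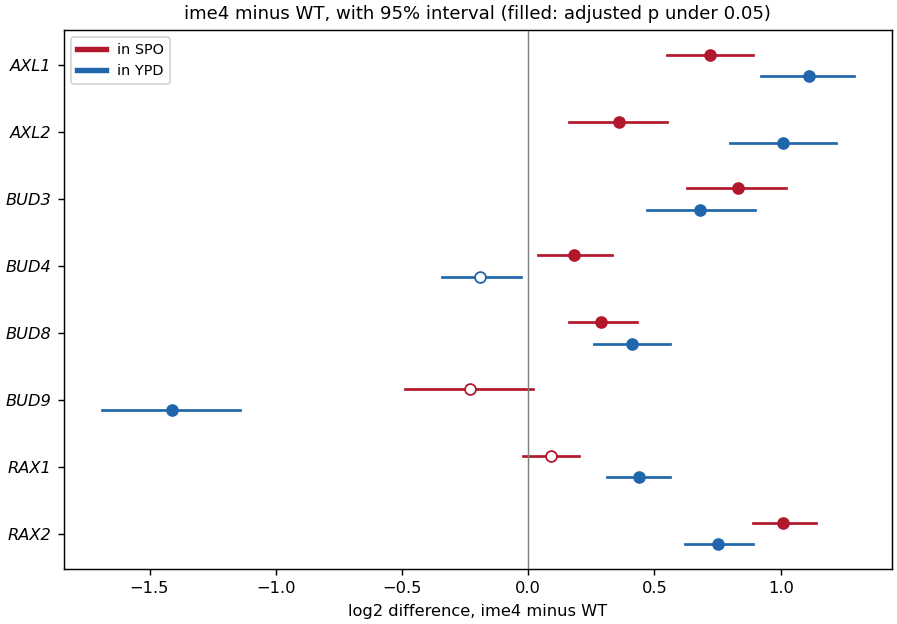
Log2 difference of ime4 minus WT (x axis) for each bud site gene (y axis) in SPO and in YPD. Points are estimates with 95% intervals, and filled points passed the adjusted threshold. The intervals of AXL1, AXL2, BUD3, BUD8 and RAX2 lay above 0 in both media, and that of RAX1 in YPD alone. The BUD9 estimate in YPD was -1.41.

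The transfer to SPO was compared with YPD within each genotype. In ime4, 6 of the 8 genes fell (42.0% of all tested sets fell) and 0 rose by limma, also at an unadjusted p of 0.05 (44.0% of all tested sets rose). AXL1 and BUD9 did not pass in ime4, with unadjusted p = 0.491 and 0.916. In WT, 7 of 8 fell (43.1% of all tested sets) and 1, AXL1, rose (46.9%). The medians over the 8 were -0.80 in ime4 and -1.0 in WT, against 0.04 and 0.05 over all tested sets. The RAX2 change in WT was exceeded in size, in either direction, by 37.2% of the tested sets and the BUD4 change by 38.1%, while the AXL2 change in ime4 was exceeded by 10.2% and that of RAX1 in ime4 by 25.7%.

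AXL2 fell 3.71-fold in ime4 (log2 -1.89, SE 0.0938, adjusted p = 3.56e-08) and by 2.36-fold in WT (log2 -1.24, SE 0.0856, adjusted p = 3.05e-07). RAX1 fell 2.31-fold in ime4 and 1.82-fold in WT, RAX2 1.85-fold in ime4 and 2.23-fold in WT, and BUD8 1.80-fold in ime4 and 1.66-fold in WT. BUD4 fell 1.69-fold in ime4 (adjusted p = 3.27e-06) and 2.19-fold in WT (adjusted p = 5.45e-08). These 5 genes thus fell in both genotypes, with SPO arrays below the YPD arrays of their own genotype. BUD3 fell 1.22-fold in ime4 (log2 -0.28, SE 0.0948, adjusted p = 0.0188) and 1.34-fold in WT (log2 -0.42, SE 0.0865, adjusted p = 0.00103). The BUD3 call in ime4 was lost without ime4 replicate 1 in SPO (-0.17, adjusted p = 0.154) and without ime4 replicate 1 in YPD (-0.17, adjusted p = 0.153).

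AXL1 and BUD9 had a medium response in WT that did not pass in ime4. AXL1 rose 1.36-fold in WT (log2 0.44, SE 0.0744, adjusted p = 0.000281), and in ime4 its difference was 0.06 (95% interval -0.13 to 0.24). BUD9 fell 2.29-fold in WT (log2 -1.19, SE 0.112, adjusted p = 3.5e-06), and in ime4 its difference was -0.01 (95% interval -0.29 to 0.26). In size, the AXL1 rise in WT was exceeded by 71.7% of the tested sets and the BUD9 fall in WT by 35.8%. For BUD9 in ime4 the value depended on the scaling, since quantile normalization gave -0.77 (adjusted p = 0.000213).

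The difference between the 2 responses, ime4 minus WT, passed for 6 of the 8 genes. It was positive for 3 (29.5% of all tested sets) and negative for 3 (34.6%), counts near those shares, with a median of 0.02 over the 8. BUD9 had the largest, 1.18 (SE 0.166, adjusted p = 0.000222, and 0.81 with quantile normalization, adjusted p = 0.00207). BUD4 at 0.37 (adjusted p = 0.00649) and RAX2 at 0.26 (adjusted p = 0.0175) also fell less in ime4. The call for RAX2 was lost with an offset of 16 added to the intensities (0.14, adjusted p = 0.0973) and without ime4 replicate 1 in SPO (0.0599) or in YPD (0.0682). AXL2 at -0.65 (SE 0.127, adjusted p = 0.00159) and RAX1 at -0.35 (SE 0.073, adjusted p = 0.00252) fell more in ime4. AXL1 had -0.38 (SE 0.11, adjusted p = 0.013), lost without ime4 replicate 1 in YPD (adjusted p = 0.0525). BUD3 (0.14, 95% interval -0.15 to 0.43) and BUD8 (-0.11, 95% interval -0.31 to 0.09) did not pass.

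**Figure D3:**
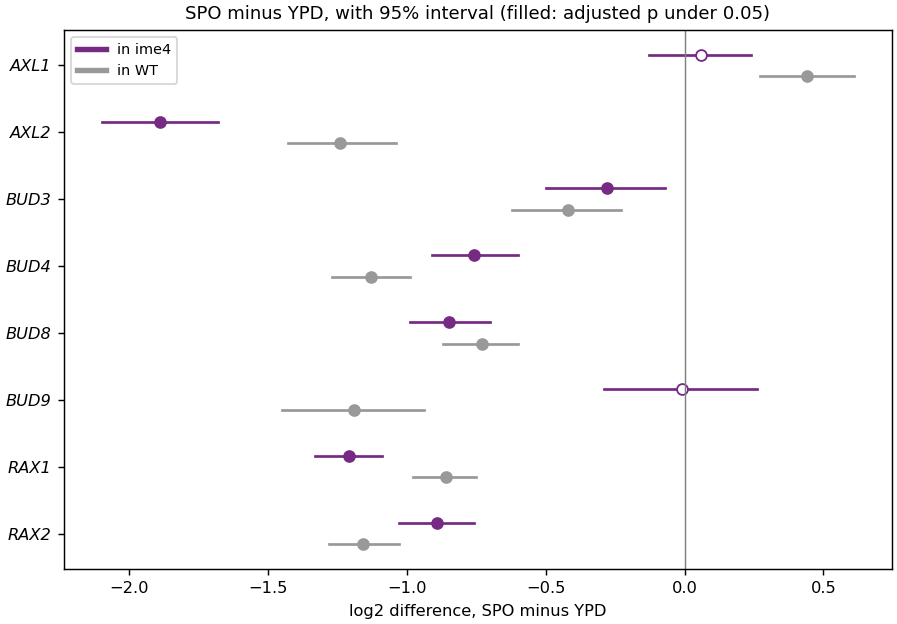
Log2 difference of SPO minus YPD (x axis) for each bud site gene (y axis) in ime4 and in WT. Points are estimates with 95% intervals, and filled points passed the adjusted threshold. In WT only AXL1 lay above 0, and BUD9 lay at -0.01 in ime4 against -1.19 in WT.

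Put in order of level over the 4 groups, the genes formed several patterns. For AXL2, BUD8, RAX1 and RAX2 the YPD cultures stood above the SPO cultures. Within each medium AXL2, BUD8 and RAX2 were higher in ime4, whereas RAX1 was so in YPD and did not pass in SPO (0.09, adjusted p = 0.131). For BUD3 the ime4 cultures stood above the WT cultures, with YPD above SPO within each genotype. BUD4 was highest in WT in YPD, followed by ime4 in the same medium, and lowest in WT in SPO, with the small gaps between genotypes described above. AXL1 was highest in ime4, with overlapping arrays in the 2 media, and among WT cultures it was higher in SPO. BUD9 was highest in WT in YPD, and its arrays in ime4 in SPO overlapped those in WT in SPO and those in ime4 in YPD.

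Across the 9 arrays, AXL2, BUD8 and RAX1 varied together (Pearson r of 0.98 for each pair). BUD8 and RAX2 had r = 0.95, and RAX1 and RAX2 had r = 0.87. AXL1 and BUD9 ran opposite to each other (r = -0.81). These values describe 4 groups rather than 9 independent conditions, and share the same arrays. The most similar profile to AXL1 was that of RKM5, a lysine methyltransferase gene, at r = 0.977, followed by MPH1, a DNA helicase gene (0.973), and SOD2 (0.967), and 0.355% of the tested sets had r over 0.9 with it. BUD9 was closest to the B-type cyclin gene CLB1 (0.964), YNR065C (0.957) and YRA2 (0.956), with 0.504% over 0.9. BUD3 was closest to RDH54 (0.977), YAR068W (0.974) and TRS65 (0.968), with 0.952% over 0.9. RAX2 was closest to SST2, a regulator of pheromone signalling, PRY2 (0.994 each) and MSB2 (0.993), with 9.67% over 0.9. Among the other members, 15.7% of the tested sets had r over 0.9 with AXL2, 20.9% with BUD8, 23.1% with RAX1 and 26.2% with BUD4. AXL2 was closest to CKB1 (0.993), PBA1 and MAP2 (0.992 each), BUD4 to TOM71, HXT3 (0.996 each) and CHS2 (0.995), BUD8 to RPS30A (0.995), CHA1 and COS12 (0.992 each), and RAX1 to RET3, EUG1 (0.995 each) and DST1 (0.994).

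The GTPase module that reads the landmarks has 3 genes, which did not move alike. RSR1, the GTPase gene, averaged 9.94 ± 0.154 in ime4 in SPO (SD, n = 2) against 8.59 ± 0.0731 in WT (SD, n = 3), and 9.84 ± 0.0201 in ime4 in YPD against 9.74 ± 0.09 in WT (SD, n = 2 each). It was low in WT in SPO alone. RSR1 was 2.55-fold higher in ime4 in SPO (log2 1.35, SE 0.0739, adjusted p = 3.01e-07), fell 2.21-fold from YPD levels in WT, and did not pass between the genotypes in YPD (0.10, adjusted p = 0.356). The difference of its responses was 1.25 (SE 0.11, adjusted p = 1.17e-05). BUD2, which encodes the GTPase activator of Rsr1, rose in SPO by 0.57 in ime4 and by 0.86 in WT. BUD5, which encodes its exchange factor, rose by 0.40 in ime4 and by 0.54 in WT. Between the genotypes, BUD2 was lower in ime4 in SPO (-0.27, adjusted p = 0.00455) and BUD5 was higher in YPD (0.27, adjusted p = 0.00464). BUD5 was also higher in SPO (0.14, adjusted p = 0.0381), a call lost with quantile normalization (0.02, adjusted p = 0.763).

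The counts that follow, ime4 against WT, stand beside 34.1% of all tested sets higher and 39.4% lower in SPO, and 21.3% higher and 18.7% lower in YPD. Downstream, the Cdc42 module had 10 of 14 genes higher in ime4 in SPO and 3 lower (median 0.29), and 9 higher and 2 lower in YPD (median 0.27). Genes for the Cdc42 effectors Gic1 and Gic2 had the smallest p, GIC1 in SPO (0.89 higher in ime4) and GIC2 in YPD (0.83 higher). Of 8 septin and septin kinase genes, 5 were higher in ime4 in SPO (median 0.19) and 3 in YPD (median 0.07), and the others did not pass. The kinase genes HSL1 (1.17 in SPO) and GIN4 (0.73 in YPD) differed most clearly. Of the polarisome and formin genes, 3 of 7 were higher and 3 lower in SPO, near those shares. SPA2, a polarisome scaffold gene, was 0.89 higher and the formin gene BNI1 had -0.66. In YPD 3 were higher and 1 lower. Of 7 other bud site factors, 4 were higher and 2 lower in SPO, MSB1 by 1.08, and 1 was higher and 2 lower in YPD, the YPD counts again near the shares of all sets. Genes of a-factor maturation, a list that holds AXL1, had 5 higher and 3 lower of 10 in SPO and 4 of each in YPD. The lower ones with the smallest p were the a-factor genes MFA1 (-2.08 in SPO, -2.34 in YPD) and MFA2.

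Between SPO and YPD, 42.0% of all tested sets were lower and 44.0% higher in ime4, and 43.1% were lower and 46.9% higher in WT. The Cdc42 module had 10 of 14 genes lower and 3 higher in ime4, and 9 lower and 3 higher in WT. The septins went both ways. SHS1 rose by 1.43 in ime4 and by 0.90 in WT, and CDC12 changed by -1.43 in ime4 and by -1.51 in WT. The list of G2 and M transcripts, which holds BUD3, BUD4 and BUD8, had 10 of 12 genes lower in ime4 and 12 of 12 in WT, with medians of -0.75 and -1.16. The late G1 list, which holds AXL2 and RSR1, had 10 of 14 lower and 2 higher in ime4, and 13 of 14 lower in WT, with medians of -0.89 and -1.37. BUD3, BUD4, BUD8 and AXL2 were themselves counted among the lower genes of these lists in both genotypes. Counts and medians without the members were not taken. RNR1, of deoxynucleotide synthesis, changed by -2.89 in ime4 and by -3.42 in WT. The part of cell cycle transcripts in the fall of the landmark genes was not tested.

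Further genes carry BUD names because their deletion strains budded at random sites in a screen, although they act in splicing, ribosome assembly and other basic processes. Of 10 such genes, 6 were higher and 3 lower in ime4 in SPO (median 0.47), and 2 were higher and 5 lower in YPD (median -0.11), beside 34.1% of all tested sets higher and 39.4% lower in SPO, and 21.3% higher and 18.7% lower in YPD. In WT, 9 of 10 fell from YPD to SPO (median -1.31), and in ime4, 6 fell and 3 rose (median -0.47). Of all tested sets, 43.1% fell and 46.9% rose in WT, and 42.0% fell and 44.0% rose in ime4. BUD20, of ribosome assembly, was 1.44 higher in ime4 in SPO and had a difference of responses of 1.42.

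**Figure D4:**
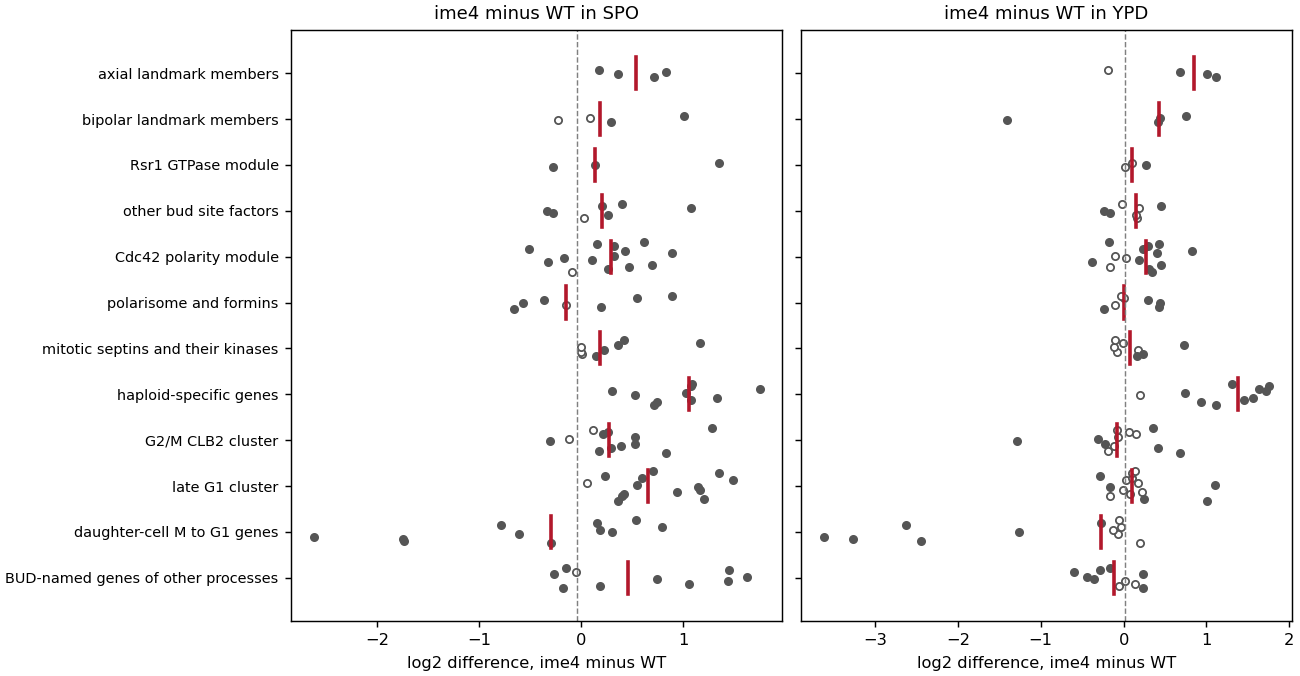
Log2 difference of ime4 minus WT (x axis) in SPO and in YPD for each gene of 12 lists (y axis). Points are genes, filled where the adjusted threshold was passed. Red bars are list medians and the dashed line is the median of all tested sets. In YPD the axial landmark median was 0.85, the haploid-specific median 1.38, and BUD9 was the bipolar gene below 0.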

How the data were processed

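The deposited values are intensities on a linear scale, made by the authors with RMA, per the submitters' processing notes (settings not given in the sources used here). Such processing commonly fits arrays to 1 distribution, which would hide a change common to all transcripts. Their log2 was taken with no offset. Of 9676 probe sets, 5359 were paired by gene identifier with genes of the yeast RefSeq table (assembly R64) and tested. Background on each array was the 95th percentile of 1412 probe sets (log2 3.01 to 3.25). These carry a gene symbol or identifier absent from that table, and were taken as those of another species. The number of arrays limits precision.

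Group means were fitted to all 9 arrays with limma 3.58.1 (lmFit, eBayes; R 4.3.3), two-sided, with Benjamini-Hochberg adjustment over all tested sets. The procedure was also run on simulated data with genes shifted in ime4 in SPO alone, a simpler setting than these data. Alternatives were quantile normalization, centring, a filter on dim sets, an offset of 16, an intensity trend, the replicate number as a block, and leaving out each array. Members and lists were chosen with earlier results of these data known. All members were named, with the 3 Rsr1 module genes, up to 2 genes with the smallest p per list and contrast, mating-type markers, and the 3 sets with the highest correlation to each member. GPS1, NAP1, AIP5 and CLB5 had no tested set here, and 1 listed gene is not reported here. Promoter and protein sequences were not used here.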

Additional observations from a re-analysis of the deposited data

Results flagged for a closer look

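The response to SPO differed between ime4 and WT, by the test of the difference itself, for 6 of the 8 bud site genes, while 29.5% of all tested sets passed with a positive and 34.6% with a negative difference. The difference was positive for 3 of the 8 and negative for 3, counts near those shares. The differences of the log2 responses, ime4 minus WT, were 1.18 for BUD9, 0.37 for BUD4, 0.26 for RAX2, -0.35 for RAX1, -0.38 for AXL1 and -0.65 for AXL2. In the GTPase module that reads the landmarks, RSR1 differed by 1.25 and BUD2 by -0.29. The RAX2 call was lost with an offset of 16 (0.14, adjusted p = 0.0973) and without ime4 replicate 1 in SPO (adjusted p = 0.0599) or in YPD (0.0682), and the AXL1 call without ime4 replicate 1 in YPD (-0.32, adjusted p = 0.0525). The BUD2 difference did not pass with quantile normalization (-0.22, adjusted p = 0.079) or with centring (-0.23, adjusted p = 0.0701). No group held the 4 arrays that a check for outlying arrays needs.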

How the results depend on the processing

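Over the alternatives, 575 comparisons of single members were made: 547 kept direction and side of the threshold, 12 lost the call, 11 gained one and 5 changed sign. Leaving out the dimmest 25% of sets kept 3 members, AXL2, BUD4 and BUD8, so their counts past the threshold were 3 for ime4 against WT in SPO, 3 in YPD, 3 for SPO against YPD in ime4, 3 in WT and 2 for the difference of responses, against 6, 7, 6, 8 and 6. The sign changes were in values that had not passed. RAX1 in SPO, ime4 against WT, had -0.12 with quantile normalization. In ime4, SPO against YPD, AXL1 had -0.021 with quantile normalization and between -7.9e-05 and 0.12 when single arrays were left out, and BUD9 between -0.21 and 0.19. Quantile normalization moved the median of all sets in that comparison to -0.085, against 0.039, and centring moved it in WT to -0.048, against 0.055. Counts over all tested sets stayed within 1.5 times in every setting. The cause of these shifts was not tested.

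Same-numbered arrays did not deviate together (r of -0.0204 to 0.021 between groups), so the numbers were not taken as pairs. With the replicate block, the members past the threshold numbered 6, 7, 6, 8 and 6, but in SPO BUD4 did not pass (0.16, adjusted p = 0.053) and BUD9 did (-0.27, adjusted p = 0.0191). A second probe set per member was not tried, since each had 1. Groups of 2 or 3 arrays limit what can be seen, and all members lay above background.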
